A study of Mus musculus with 2 samples.

Results

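The genes described here encode the bone morphogenetic protein (BMP) and transforming growth factor beta (TGF-beta) pathways: their ligands, receptors, extracellular antagonists, Smad proteins and Id target genes. The 43 genes were listed by name, and all 43 were found among the 43346 annotated genes of the tables by matching gene identifiers, without version, to GENCODE symbols. The RNA came from neural tube of B6NCrl mouse embryos aged 15.5 days, pooled from 78 embryos for replicate 1 and 62 embryos for replicate 2, with males and females mixed and no treatment or engineered allele named. The 2 libraries are biological replicates of a single group, so no condition could be compared, and the differences given below are between 2 pools.

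BMP and TGF-beta ligands are secreted dimers that bring together type I and type II receptor kinases. The activated type I receptor phosphorylates receptor-regulated Smads, Smad1, Smad5 and Smad9 for BMPs and Smad2 and Smad3 for TGF-beta and activin, which enter the nucleus with Smad4. Antagonists such as Noggin and Chordin hold BMPs away from their receptors, inhibitory Smads damp the signal inside the cell, and the Id genes, inhibitors of basic helix-loop-helix factors, are classic BMP targets. In the developing spinal cord, BMPs from the roof plate pattern dorsal progenitors, and TGF-beta ligands act in neuron survival and vessel growth.

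Gene expected counts, which share a read between the transcripts that it fits, summed to 34678043 in replicate 1 and 41355355 in replicate 2. The defining markers of the labelled tissue were present, with 8 of 8 neuronal, 8 of 8 progenitor and radial glia and 8 of 8 trunk position (Hox) genes at 1 TPM or more in both libraries. TPM is transcript abundance corrected for length and scaled to a common total. The Hox genes also differed between the pools, with 7 of the 8 higher in replicate 2. Hoxa5 differed most, at 22 TPM in replicate 1 and 60.6 TPM in replicate 2, and Hoxc8 stood at 46.5 and 88.6 TPM. Hoxd10 alone was higher in replicate 1, at 68.7 and 50.7 TPM. Markers of other tissues separated the pools: the summed TPM of 12 thymocyte genes was 305 in replicate 1 and 9.86 in replicate 2, that of 7 thymic epithelium genes was 554 and 13.6, that of 6 other epithelial genes was 394 and 9.36, and that of 8 pericyte and smooth muscle genes was 291 and 64.3. In the pericyte and smooth muscle list, Acta2 (175 and 17.9 TPM), Tagln, Cnn1 and Myh11 differed most. Pdgfrb (16.6 and 10.4 TPM), Rgs5, Kcnj8 and Cspg4 differed less, each in the same direction. Of the thymic epithelium sum, the keratin gene Krt8 gave 266 and 1.97 TPM, Prss16 gave 136 and 0.07 TPM and Ccl25 gave 86.9 and 10.7 TPM. The keratin gene Krt18 gave 254 and 1.57 TPM of the other epithelial sum, so keratin genes led both sums in replicate 1. The defining thymic genes Cd3g and Foxn1 were listed at 0 in replicate 2. The libraries were therefore given side by side throughout, and in such bulk tissue a change in the number of cells of a type and a change in RNA per cell cannot be told apart.

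Nearly all of the 43 genes were transcribed, from receptors to targets, with Id2, Id3 and Id4 far above the rest in TPM. Of the 43 genes, 40 reached 1 TPM in both libraries, the level called detected here, beside 35.8% of all annotated genes and 63.4% of protein-coding genes. The 3 exceptions were Gdf7, Tgfb1 and Smad9. The median of the 43 genes was 8.03 TPM in replicate 1 and 5.30 TPM in replicate 2, against 17.0 and 15.98 TPM for the 15505 detected genes, and 14 of the 43 lay above the median of detected genes. The 4 Id genes held 57.4% of the TPM of the group in replicate 1 and 59.8% in replicate 2.

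**Figure D1:**
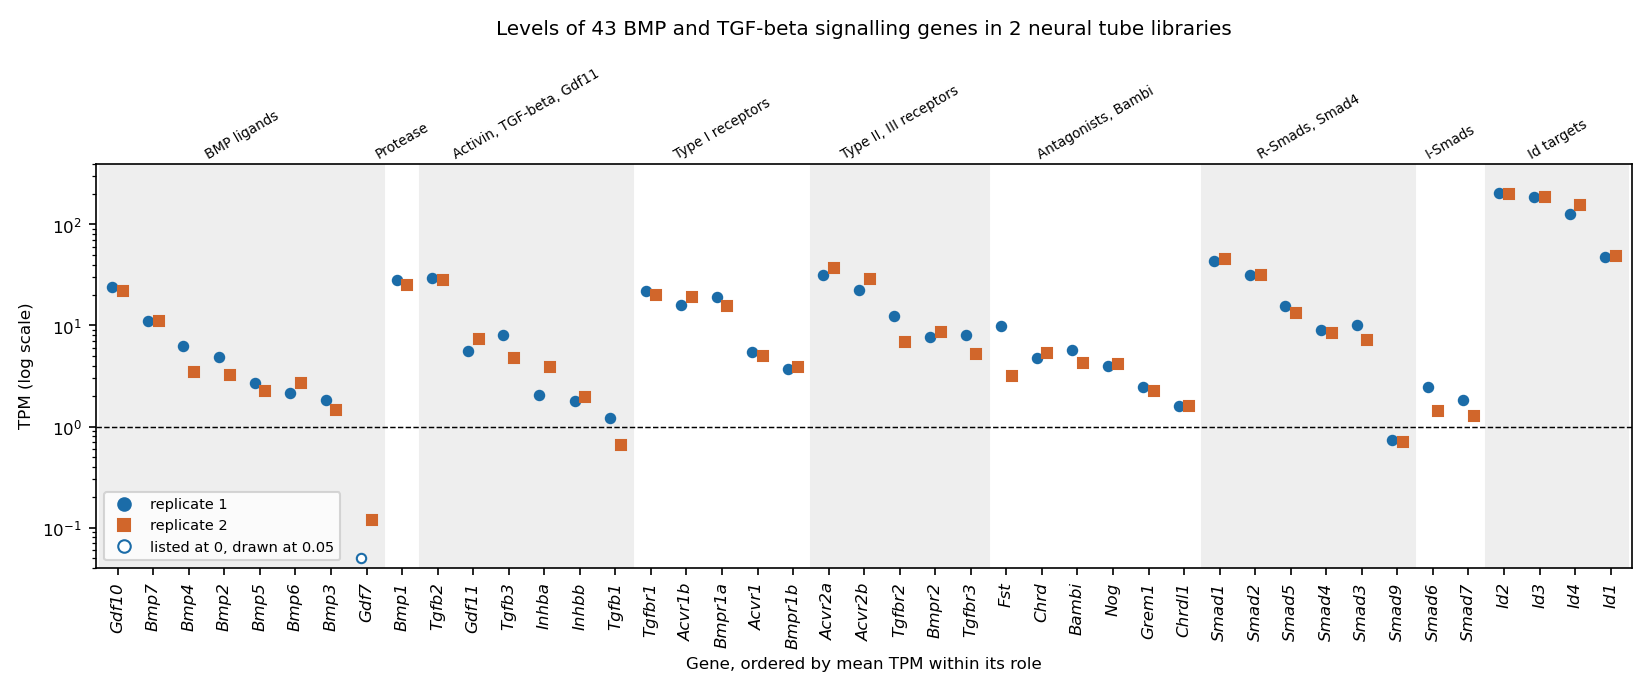
TPM of each of the 43 genes in replicate 1 (circles) and replicate 2 (squares) on a log scale, grouped by role and ordered by mean within a role; the dashed line marks 1 TPM, and the open circle is Gdf7, listed at 0 in replicate 1. The Id genes lie between 47.2 and 203.7 TPM, above every ligand, receptor and antagonist in both libraries, with Id1 just above Smad1.

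Gdf10 and Bmp7 were the highest ligands of the BMP branch, and the dorsal ligand Gdf7 was near 0. Gdf10, also called BMP3b, stood at 23.96 TPM in replicate 1 and 22.0 TPM in replicate 2 (mean 23.0 ± 1.39, SD, n = 2). Bmp7, a ligand of roof plate and meninges, stood at 10.96 and 11.2 TPM (mean 11.1 ± 0.163). Both libraries put Gdf10 above Bmp7 and Bmp7 above every other BMP ligand.

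The closely related ligands Bmp4 and Bmp2 were lower and had overlapping ranges. Bmp4 stood at 6.23 and 3.50 TPM, and Bmp2 at 4.83 and 3.22 TPM, both higher in replicate 1. Bmp5 (2.68 and 2.24 TPM) and Bmp6 (2.15 and 2.68 TPM) did not differ beyond the spread of the libraries. Bmp6 shares 224 exon bases with Txndc5 on the opposite strand, a gene at 89.1 ± 12.2 TPM, and since no source used here states whether strand was used in the counting, the reads of the overlap cannot be told apart. Bmp3, a ligand that opposes other BMPs, was the lowest detected ligand of the branch at 1.81 and 1.45 TPM.

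Gdf7, which the roof plate secretes to specify dorsal interneurons, had 0 reads in replicate 1, which allows up to 0.103 TPM (3 counts, counting error only), and 4 reads or 0.12 TPM in replicate 2. The roof plate list as a whole was low, with 2 of 6 genes detected and a summed TPM of 15.7 in replicate 1 and 26.1 in replicate 2. Bmp1 is named with the BMPs but is a protease that cleaves procollagen and Chordin. It stood at 28.0 and 25.1 TPM (mean 26.5 ± 2.06), above all ligands of the branch. Bmp1-201 was the only Bmp1 transcript quantified.

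The mix of Bmp4 transcripts differed between the pools. Its coding transcripts Bmp4-201 and Bmp4-202 encode the same protein, start 119 bases apart on chromosome 14 (46390669 and 46390550, build mm10, minus strand), end 187 bases apart, and differ in between by a non-coding exon of Bmp4-201 (chromosome 14, 46387156 to 46387280). Bmp4-201 held 89.6% of the TPM of the gene in replicate 1 and 51.5% in replicate 2, and Bmp4-202 held 7.06% and 44.8%. The deposited bounds of Bmp4-201 did not overlap, at 3.88 to 6.06 TPM in replicate 1 and 1.04 to 2.63 TPM in replicate 2, whereas those of Bmp4-202 did, at 0.000226 to 2.05 and 0.498 to 2.49 TPM. The gene values rest on 260 reads in replicate 1 and 159 in replicate 2, and Bmp4 was singled out after its values were seen.

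Among TGF-beta and activin ligands, Tgfb2 stood alone at the top in gene TPM, which includes its non-coding transcripts described below. It reached 29.7 TPM in replicate 1 and 28.1 TPM in replicate 2 (mean 28.9 ± 1.10), against 8.03 and 4.79 TPM for Tgfb3 and 1.22 and 0.66 TPM for Tgfb1. The ratio of Tgfb2 to Tgfb1 was 24.3 in replicate 1 and 42.6 in replicate 2, and that of Tgfb2 to Tgfb3 was 3.70 and 5.87. All 3 genes encode TGF-beta ligands, and their order was the same in both libraries.

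Gdf11, a ligand of the activin branch that times neurogenesis and sets trunk position, stood at 5.60 and 7.39 TPM and overlapped Tgfb3 in range. The activin subunit genes were low, with Inhba at 2.07 and 3.89 TPM and Inhbb at 1.77 and 1.98 TPM. Only 69 and 154 reads lay behind the Inhba values, and Inhba exceeded Inhbb in TPM but not in CPM, which are counts scaled to the library total and not divided by length.

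Tgfb2 RNA was spread over coding and non-coding transcripts. The non-coding transcript Tgfb2-205, annotated as a retained intron, held 45.9% of the TPM of the gene in replicate 1 and 36.8% in replicate 2, the coding Tgfb2-201 held 32.2% and 35.4%, and the coding Tgfb2-206 held 11.2% and 12.3%. Tgfb2-205 is short (898 bases), and by expected counts Tgfb2-201 led with 66.6% and 68.8%. The leading transcript of Tgfb2 therefore depended on whether abundance was divided by length. The coding Tgfb2-201 alone stood at 9.55 and 9.95 TPM. In CPM the gene Tgfb2 exceeded Tgfb3 by 2.73-fold and 4.61-fold. A shorter retained-intron form of Bmp7, Bmp7-202, held 18.4% and 22.7% of the TPM of Bmp7, and the coding Bmp7-201 held 81.6% and 77.3%. By expected counts Bmp7-202 held 5.27% and 6.77%.

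Tgfb2-206 differs in its coding part from Tgfb2-201 by an added exon of 84 bases, or 28 codons, at chr1:186690721-186690804 (GRCm38, minus strand), which keeps the reading frame. It is shown because it is the coding difference behind these shares, with the added exon in capitals and 15 coding bases on either side in lower case, from the GENCODE M21 transcript sequences.
Tgfb2-206: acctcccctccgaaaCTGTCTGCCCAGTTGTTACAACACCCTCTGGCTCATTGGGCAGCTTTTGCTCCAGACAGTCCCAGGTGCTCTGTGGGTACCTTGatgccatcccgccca

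**Figure D2:**
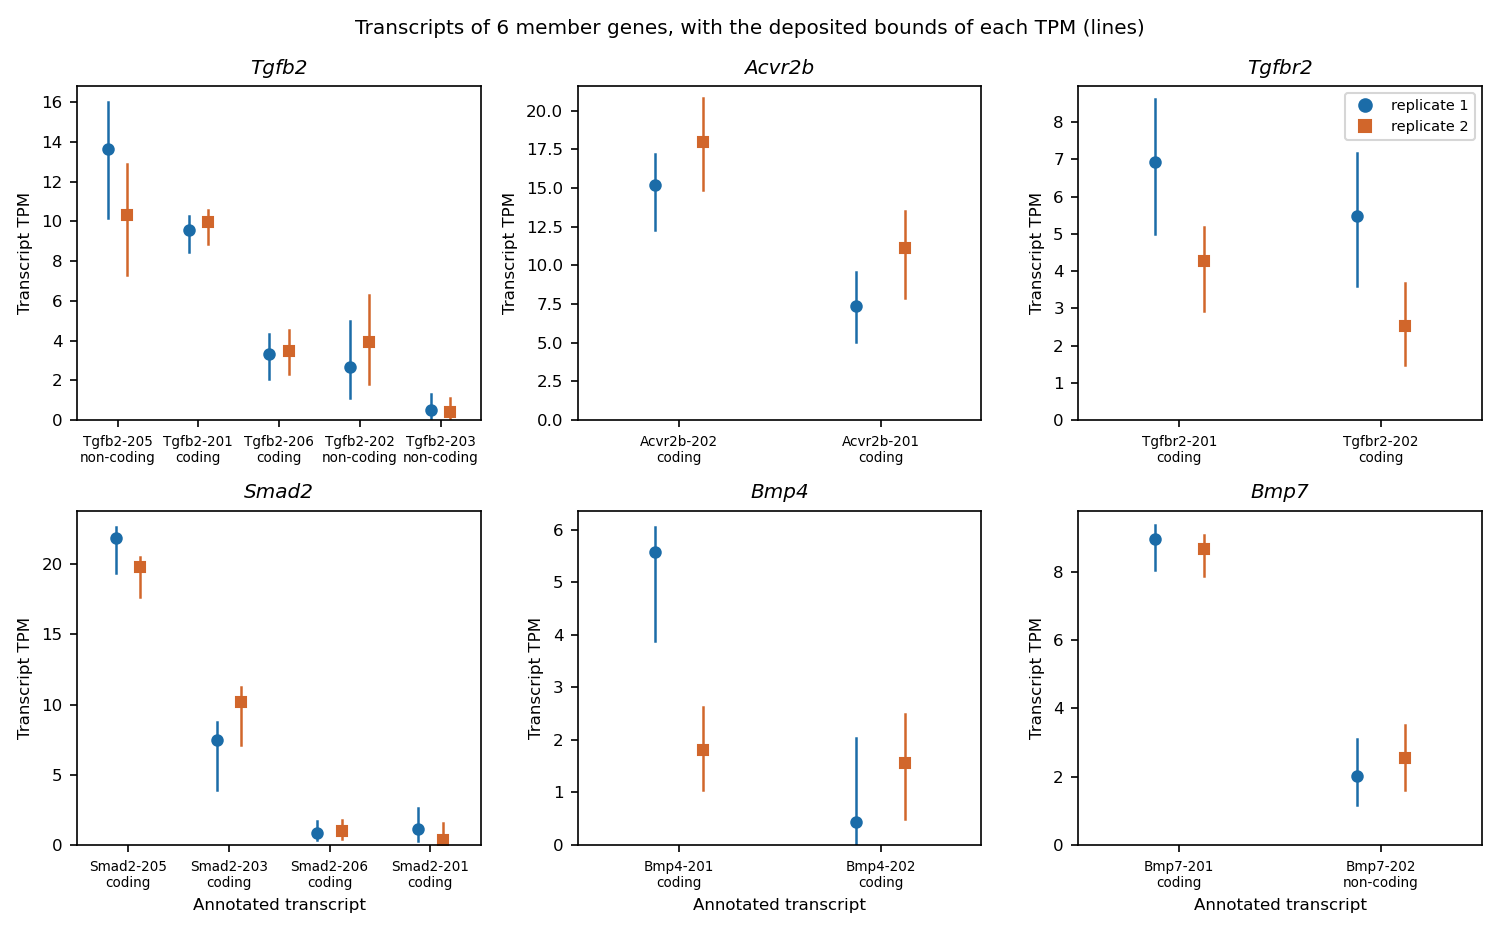
TPM of annotated transcripts with a mean of at least 0.3 TPM for 6 of the genes, in replicate 1 (circles) and replicate 2 (squares), with the deposited lower and upper bounds of each TPM as lines; each panel has its own linear axis from 0. The bounds of the libraries overlap for the transcripts of Tgfb2, Acvr2b, Tgfbr2, Smad2 and Bmp7 shown, and not for Bmp4-201.

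All 5 type I receptors were detected, and Tgfbr1 was the highest of them in both libraries. Tgfbr1, the TGF-beta type I receptor, stood at 21.9 TPM in replicate 1 and 20.1 TPM in replicate 2. Acvr1b, the activin type I receptor, stood at 15.9 and 19.0 TPM, and Bmpr1a, the widely expressed BMP type I receptor, at 19.1 and 15.5 TPM. The ranges of Acvr1b and Bmpr1a overlapped, so they did not differ beyond the spread of the libraries.

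The other BMP type I receptors were lower. Acvr1 stood at 5.43 and 5.03 TPM, and Bmpr1b, which marks dorsal neural tissue and cartilage, at 3.75 and 3.87 TPM. Bmpr1a exceeded Bmpr1b by 5.10-fold in replicate 1 and 3.99-fold in replicate 2 (mean 4.55 ± 0.786). Of the transcripts of Acvr1, Acvr1-203 held 67.3% and 53.9% of the TPM and Acvr1-204 held 20.5% and 25.4%, with overlapping bounds.

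The activin type II receptors were the highest receptors of the group in TPM, whereas in CPM Acvr2a alone stayed at the top and Acvr2b (23.3 and 29.96) stood below Tgfbr1, Bmpr1a, Acvr1b and Bmpr2. Acvr2a, which takes both activins and BMPs, stood at 31.4 TPM in replicate 1 and 36.9 TPM in replicate 2 (mean 34.2 ± 3.89), and Acvr2b at 22.6 and 29.1 TPM (mean 25.8 ± 4.56), both higher in replicate 2. The exons of Acvr2a share 446 bases with Orc4 on the opposite strand, a gene at 72.5 ± 0.636 TPM, so part of the Acvr2a reads could belong to either gene. Acvr2a exceeded Acvr2b by 1.39-fold and 1.27-fold in TPM, but by 4.70-fold and 4.26-fold in CPM.

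Bmpr2, the dedicated BMP type II receptor, was lower than both in TPM, at 7.74 and 8.61, but above Acvr2b in CPM, at 60.9 and 66.3. The ratio of Bmpr2 to Acvr2a was 0.246 and 0.233 in TPM and 0.556 and 0.519 in CPM. Tgfbr2, the TGF-beta type II receptor, stood at 12.4 and 6.81 TPM, and Tgfbr3 (betaglycan), the co-receptor that presents TGF-beta2, at 8.13 and 5.28 TPM, both higher in replicate 1. The ranges of Tgfbr2, Bmpr2 and Tgfbr3 overlapped from neighbour to neighbour. Acvr2a RNA was nearly all of a single form, with 96.8% and 95.8% in Acvr2a-201. Tgfbr3-201 held 64.4% and 66.8% of the TPM of Tgfbr3, and Tgfbr3-204, annotated as a retained intron, held 28.2% and 22.3%, but 8.38% and 6.46% by expected counts.

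Both Acvr2b and Tgfbr2 were expressed as a mixture of coding forms. Acvr2b-202 held 67.3% of the TPM of Acvr2b in replicate 1 and 61.8% in replicate 2, and Acvr2b-201, which lacks 24 bases (8 codons) at chr9:119428201-119428224 (GRCm38, plus strand), held 32.7% and 38.2%. Tgfbr2-201 held 55.9% and 62.9% of the TPM of Tgfbr2, and Tgfbr2-202, which carries an added exon of 75 bases (25 codons) at chr9:116158271-116158345 (GRCm38, minus strand), held 44.2% and 37.1%. The bounds of each of these 4 transcripts overlapped between the libraries. The coding segments that set the forms apart are shown in capitals, with 15 coding bases on either side, from the GENCODE M21 transcript sequences.
Acvr2b-202: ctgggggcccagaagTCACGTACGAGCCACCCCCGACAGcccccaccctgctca
Tgfbr2-202: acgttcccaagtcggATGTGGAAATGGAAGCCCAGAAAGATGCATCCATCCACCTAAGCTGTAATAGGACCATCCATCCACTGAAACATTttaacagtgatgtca

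The extracellular antagonists were all detected, with none at 5 TPM in both libraries, and Fst was the member that differed most between the pools. Fst (follistatin, ENSMUSG00000021765, chromosome 13, 114452290 to 114458951), which binds activins, stood at 9.79 TPM in replicate 1 and 3.14 TPM in replicate 2. These values rest on 486 and 186 reads, and Fst-201 was the only Fst transcript quantified. The BMP antagonists Chrd (chordin) and Nog (noggin) were close to equal in both libraries, with Chrd at 4.72 and 5.30 TPM and Nog at 3.93 and 4.19 TPM. Their ratio of 1.23 ± 0.0452 (n = 2) rests on the division by length, since in CPM it was 2.42 and 2.56.

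Grem1 (gremlin), an antagonist of Bmp2 and Bmp4, stood at 2.46 and 2.24 TPM, and Chrdl1 at 1.59 and 1.61 TPM. Bambi, a membrane protein like a type I receptor but without a kinase, stood at 5.72 and 4.26 TPM. The ranges of Fst, Chrd and Bambi overlapped from neighbour to neighbour. The summed TPM of the 5 antagonists and Bambi was 28.2 and 20.7, and that of the 8 BMP ligands was 52.6 and 46.4. Gdf10 alone gave 23.96 and 22.0 TPM of the ligand sum. The former sum includes Fst, which binds activins, and leaves out the 17 further modulators given below, which summed to 344 and 319 TPM. The 2 sums therefore do not rank all BMP ligands against all antagonists.

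Among the Smads, Smad1 led the BMP branch and Smad2 the TGF-beta branch. Smad1 stood at 43.3 TPM in replicate 1 and 45.1 TPM in replicate 2 (mean 44.2 ± 1.29), against 15.6 and 13.4 TPM for Smad5 and 0.74 and 0.70 TPM for Smad9. Smad1 exceeded Smad5 by 3.08 ± 0.432-fold in TPM, and by 1.29-fold and 1.57-fold in CPM. Smad5 exceeded Smad9 by 21.1-fold and 19.1-fold.

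Smad2 stood at 31.3 and 31.4 TPM, and Smad3, its partner in the same branch, at 10.0 and 7.13 TPM, a ratio of 3.13 in replicate 1 and 4.40 in replicate 2 in TPM, and of 1.45 and 2.03 in CPM. Smad4, the common partner of both branches, stood at 9.07 and 8.48 TPM, within the range of Smad3. Smad2-205 held 69.8% and 63.1% of the TPM of Smad2, and Smad2-203 held 23.8% and 32.5%, with overlapping bounds. By expected counts Smad2-205 held 83.0% and 79.6%, and the shorter Smad2-203 held 12.4% and 17.9%. The inhibitory Smads, which the pathway itself induces, were near the bottom of the list, with Smad6 at 2.46 and 1.43 TPM and Smad7 at 1.83 and 1.28 TPM, from 109 to 159 reads per library.

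The Id genes were the most abundant members in TPM, and 3 of the 4 were nearly level between the pools. Id2 stood at 203.7 TPM in replicate 1 and 200.5 TPM in replicate 2 (mean 202 ± 2.31), above 94.9% of detected genes. Id3 stood at 186.7 and 186.5 TPM (mean 187 ± 0.141), Id4 at 128 and 156 TPM (mean 142 ± 19.4) and Id1 at 47.2 and 48.5 TPM (mean 47.9 ± 0.877). The order Id2, Id3, Id4, Id1 was the same in both libraries in TPM, with no overlap of ranges. In CPM the order changed between the libraries. There Id4 (128.2 and 155.7) stood below Id2 (152.6 and 150.3) and Id3 (137.4 and 136.4) in replicate 1 and above both in replicate 2. Id2 exceeded Id1 by 4.22 ± 0.126-fold and Id3 exceeded Id1 by 3.90 ± 0.0744-fold. In CPM Id1 (25.3 and 26.2) stood below Acvr2a, Smad1, Tgfbr1, Bmpr1a and Bmp1, among others. Of the 4 genes, Id4 alone differed by more than 5 TPM between the libraries, and it was the higher in replicate 2.

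Id1 and Id3 also had minor intron-holding transcripts. Id1-202, which spans the gene unspliced, held 1.75% of the TPM of Id1 in replicate 1 and 3.83% in replicate 2. Id3-203, annotated as a retained intron, held 4.46% and 5.86%. The main form Id1-201 held 98.25% and 96.2%, and Id3-201 held 95.1% and 93.65%.

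DNA before the RefSeq start sites of Id2 and Id4 is shown because a GC-rich Smad1 and Smad5 element is known from BMP target promoters. The letters GGCGCC, searched on both strands in the 250 bases before each RefSeq start site (GRCm38.p6), were in 9 of 34 windows of the 29 member genes with an entry, and in 9.59% of all 32851 windows. The 9 genes were Bmpr1a, Bmpr2, Chrd, Grem1, Id2, Id4, Smad5, Smad9 and Tgfbr1. No window was searched for the 14 members without an entry, which were Bambi, Bmp1, Bmp2, Bmp3, Bmp7, Chrdl1, Fst, Id1, Nog, Smad2, Smad4, Smad7, Tgfb3 and Tgfbr3. The TGF-beta type Smad letters GTCTG, which read CAGAC on the other strand, were in 13 of the 34 windows and in 42.2% of all, and the palindrome GTCTAGAC was in 0 of 34 and in 0.167% of all. The Id2 stretch is the 89 bases of its window outside annotated exons, at chr12:25096254-25096342 (minus strand). It lies before the start of Id2-201 (25096092), the single Id2 transcript with values in the tables, but inside an intron of Id2-202, a longer GENCODE M21 transcript that starts at 25097140. The Id4 window is printed in full at chr13:48260866-48261115 (plus strand), with the GGCGCC match in capitals in both. The window of Id3 was searched too and held no GGCGCC. These letters are all G and C, and the printed stretches of Id2 and Id4 are 67.4% and 75.6% G and C. The share over all windows was not matched for this content. A match describes the letters only and shows no binding.
Id2: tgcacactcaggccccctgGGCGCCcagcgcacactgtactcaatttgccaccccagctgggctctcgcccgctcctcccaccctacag
Id4: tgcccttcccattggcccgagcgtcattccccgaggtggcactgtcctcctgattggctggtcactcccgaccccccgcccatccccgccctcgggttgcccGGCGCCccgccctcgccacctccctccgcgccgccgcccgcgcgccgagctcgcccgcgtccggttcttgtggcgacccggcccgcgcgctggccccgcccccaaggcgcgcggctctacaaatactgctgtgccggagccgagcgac

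Ratios between related members had the same direction in both libraries in all 20 pairs examined in TPM. Of these, the ratio of Fst to Grem1 moved most, from 3.98 in replicate 1 to 1.40 in replicate 2, and in CPM it turned, from 2.20 to 0.775. The next was Bmp7 to Bmp4, at 1.76 and 3.20. Tgfbr1 to Tgfbr2 was 1.76 and 2.95. In CPM, the mean direction of Bmp4 to Bmp2, Inhba to Inhbb and Smad6 to Smad7 turned, so the order within these pairs rests on the division by length. Bmp7 exceeded Bmp6 by 5.10-fold and 4.18-fold, Id2 exceeded Id4 by 1.59-fold and 1.29-fold in TPM but stood at 1.19 and 0.965 of it in CPM, and Acvr1b stood at 0.725 and 0.944 of Tgfbr1.

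**Figure D3:**
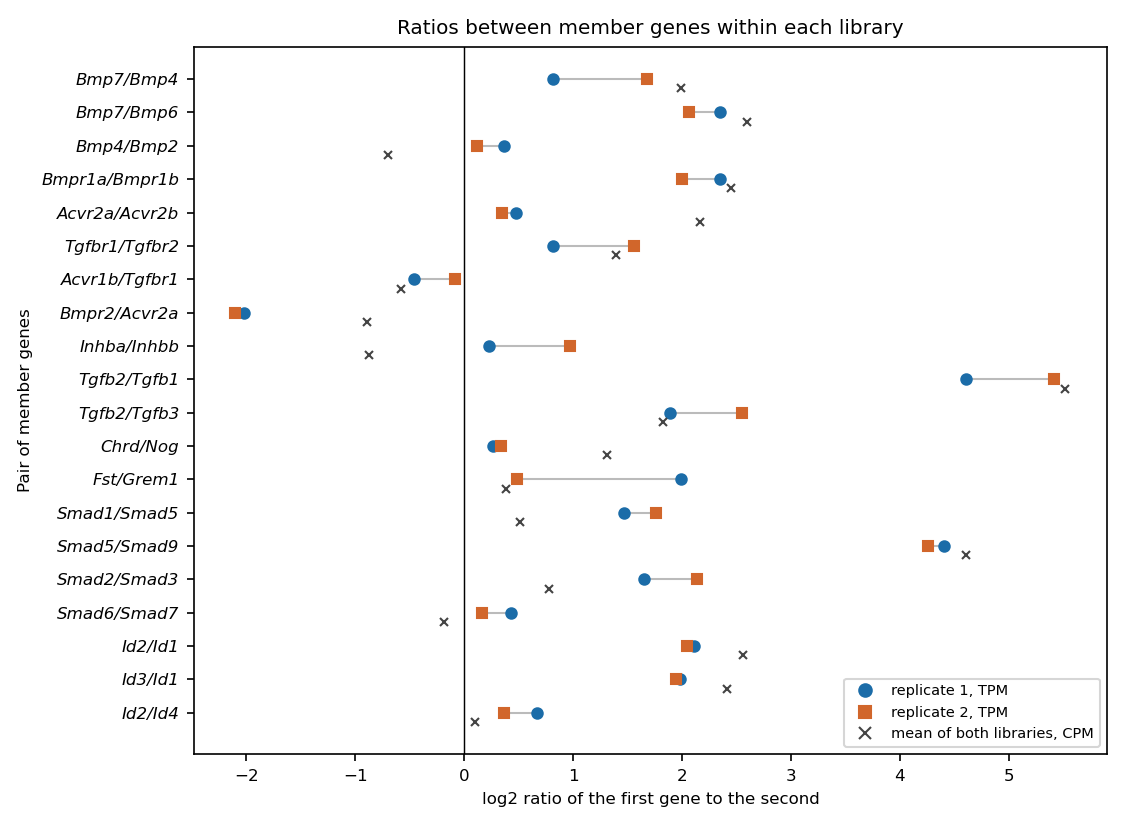
log2 ratio of the first gene to the second within replicate 1 (circles) and replicate 2 (squares) for 20 pairs of member genes, from TPM; crosses give the mean of both libraries from CPM, and the vertical line marks equal levels. Circles and squares lie on the same side of the line in every pair, and the crosses of Bmp4/Bmp2, Inhba/Inhbb and Smad6/Smad7 lie on the other side.

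Between the pools, 1 of the 26 members that could be compared, Fst, differed by a log2 value of 1 or more. The pools were compared by log2((TPM + 1) in replicate 2 over replicate 1) for the 11969 genes that averaged 5 TPM or more with 50 reads or more in sum, among them 26 of the 43. Of the 26, 15 were higher in replicate 1 and 11 in replicate 2, with a median of -0.05 against -0.01 over all genes compared. The absolute difference had a median of 0.15 over the 26 and 0.15 over all genes compared. At an absolute log2 difference of 1 or more, 1 of the 26 was higher in replicate 1, where 3.34% of all genes compared were, and 0 of the 26 were higher in replicate 2, where 0.134% were. A single gene of 26 is close to that background, and these counts rest on 2 pools without a test.

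Fst differed by -1.38 on this scale, and 248 of the 11969 genes differed by more in size. In CPM it was 3.12-fold higher in replicate 1, with an exact binomial 95% interval of 2.63 to 3.71 that covers counting error only. Fst was the higher in the library that also held the thymic, epithelial and smooth muscle transcripts given above, and the cell cycle list moved the same way, with a summed TPM of 470 in replicate 1 and 219.7 in replicate 2. Their part in the difference of Fst was not tested. In the same libraries the summed TPM of the fibroblast and meninges list was 1227 and 976, that of endothelium was 230 and 193, and that of the neuronal list was 4269 and 5067.

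At a threshold of 1.5-fold, 3 of the 26 were higher in replicate 1, where 7.01% of all genes compared were, and 0 were higher in replicate 2, where 0.877% were. Beside Fst these were Tgfbr2, 1.83-fold higher in CPM (interval 1.67 to 2.00), and Tgfb3, 1.67-fold higher (1.47 to 1.90). The receptor and the ligand belong to the same branch, whereas Tgfbr1 and Tgfb2 differed by less, with log2 differences of -0.12 and -0.08. The thymic, epithelial, smooth muscle and cell cycle lists lay in the same direction as Tgfbr2 and Tgfb3, and their part was not tested. Among the 17 members below the filter, Bmp4 was 1.95-fold higher in replicate 1 in CPM (1.59 to 2.39), Tgfb1 2.57-fold (1.59 to 4.26) and Smad6 1.72-fold (1.34 to 2.21). Inhba was 1.87-fold higher in replicate 2 (1.40 to 2.52). The intervals of the latter genes are wide because they rest on 26 to 260 reads per library.

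At the other end, Smad2, Id3, Id2, Bmp7 and Id1 hardly differed. For Smad2, 11901 of the 11969 genes differed by more, and for Id3 11891 did. The log2 differences of the 4 Id genes ran from -0.02 to 0.28, and those of the 4 type I receptors above the filter from -0.29 to 0.24.

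**Figure D4:**
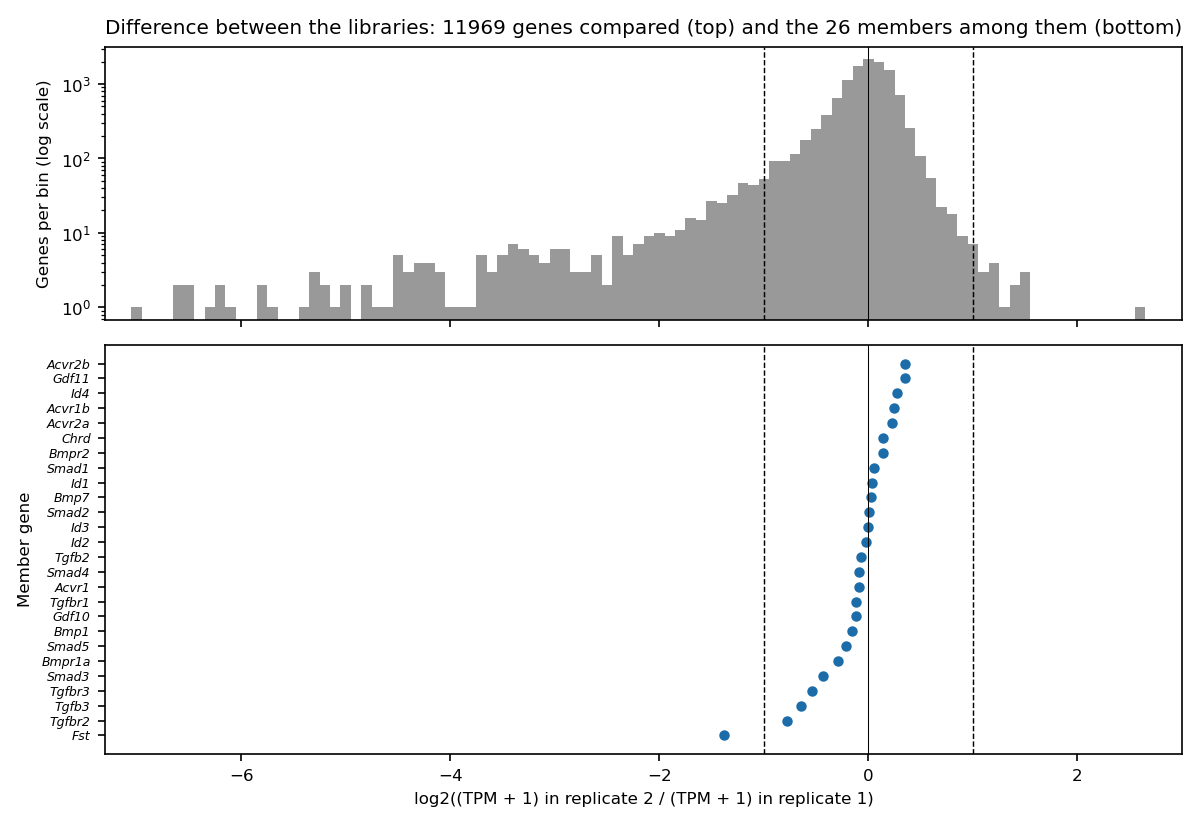
Top, number of genes per bin (log scale) of the log2 difference between the libraries for the 11969 genes compared; bottom, the same difference for the 26 members above the filter, with dashed lines at -1 and 1. Fst, at -1.38, is the single member outside the dashed lines, and the long left tail of all genes holds the 400 that were higher in replicate 1.

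In the wider pathway, listed apart from the 43 genes, most modulators and few of the other ligands were detected. Of 86 further genes found in the tables, 60 reached 1 TPM in both libraries, or 69.8% against 63.4% of protein-coding genes. Of 18 other ligands 3 did, led by Inha, the inhibin subunit that blocks activin, at 14.9 and 19.2 TPM, with Gdf9 at 2.00 and 2.40 TPM and Lefty2 at 1.58 and 2.48 TPM. Of 9 other receptors and co-receptors 6 were detected, led by Rgmb at 35.3 and 41.5 TPM, Eng (endoglin), the endothelial co-receptor, at 33.2 and 24.3 TPM and Neo1 (neogenin), a receptor for Rgm proteins, at 24.0 and 26.3 TPM.

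Most of the further modulators and all intracellular regulators were detected. Of 17 modulators 14 were detected, led by Fstl1 at 120.9 and 102 TPM, Fstl5 at 49.9 and 55.8 TPM and Twsg1 (twisted gastrulation), a BMP-binding partner of Chordin, at 48.4 and 34.9 TPM. All 19 intracellular regulators were detected, led by Fkbp1a, which guards type I receptors against leaky signalling, at 529.6 and 516.6 TPM, Strap at 129.7 and 126.8 TPM and Zeb2, a Smad-binding repressor, at 33.4 and 34.5 TPM. Of 12 other target genes 8 were detected, led by Hey1 at 27.9 and 22.2 TPM, Tgfbi at 21.4 and 6.35 TPM and Msx1, a BMP target of dorsal progenitors, at 6.42 and 12.6 TPM.

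Of 12 genes for storage and activation of latent TGF-beta, 11 were detected, led by Emilin1 at 43.8 and 20.5 TPM, the integrin gene Itgav at 24.4 and 23.7 TPM and Nrros at 18.8 and 5.31 TPM. Of the 46 further genes above the filter, 4 were higher in replicate 1 by a log2 difference of 1 or more (8.70%, against 3.34% of all genes compared) and 0 in replicate 2 (against 0.134%): Nrros (-1.65), Tgfbi (-1.61), Emilin1 (-1.06) and Tgif1 (-1.04), a Smad co-repressor at 19.9 and 9.19 TPM. All 4 differed in the direction of Fst and of the thymic and smooth muscle lists, whose part was not tested. Nrros holds latent TGF-beta on microglia and other myeloid cells, and the 6 microglia genes summed to 141 and 134 TPM. The part of microglia and other myeloid cells in the difference of Nrros was not tested.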

How the data were processed

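Total RNA of 2 pools was sequenced. Per the notes deposited with each sample, gene and transcript tables were made by the authors from transcriptome alignments on mm10 with GENCODE M4. No source used here names the aligner or quantifier, or whether counting was stranded. Per the file headers, the deposited tables hold expected counts, TPM, FPKM, posterior mean TPM, each transcript's percent share of its gene, and lower and upper TPM bounds, used here as a score whose level the deposited headers do not name. Spike-ins share the TPM total. Symbols, coordinates and transcript types came from GENCODE M21 on GRCm38, the assembly of mm10: 42462 identifiers matched and 884 did not. Promoter windows are RefSeq's on GRCm38.p6.

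Detection meant 1 TPM in both libraries. The pools were compared with a pseudocount of 1 TPM. Expected counts were rounded for TMM factors (edgeR 4.0.16), DESeq2 1.42.0 size factors and exact binomial intervals (scipy 1.17.1). No test across genes was run, because the libraries form 1 group. The SDs are over n = 2 pools. The comparison step was run on simulated data that varied less than these libraries, which checks the code and not the calls made here. CPM were taken over gene counts. Alternatives changed the threshold, unit, scaling, pseudocount, filter and library.

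The members and lists were chosen with earlier results of these data known. All 43 members are named, with, of each list of other pathway genes, the 3 highest and those apart between the pools. The pairs were fixed with them. Transcripts are given for the 10 highest members with at least 2 transcripts at 1 TPM and for Bmp1, Fst, Smad2 and Tgfb2 whatever their place. Bmp4 transcripts were added after their values were seen.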

Additional observations from a re-analysis of the deposited data

How the results depend on the processing

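The 40 members detected became 23 at 5 TPM, 42 at 0.5 TPM, 36 by FPKM, 41 by TMM-scaled CPM and 40 by posterior mean TPM, and taking each library alone gave 40 to 41. Fst was also the single member with a log2 difference of 1 or more with a pseudocount of 0.1 TPM, by FPKM, with TMM or DESeq2 scaling and with no filter on low values, and there were 3 such members (Fst, Tgfb3, Tgfbr2) at a 1.5-fold threshold. In CPM the mean log2 ratio of Bmp4 to Bmp2 became -0.70, that of Inhba to Inhbb -0.87 and that of Smad6 to Smad7 -0.18, each above 0 in TPM. Another 13 of the 20 ratios moved beyond the spread of the libraries in CPM, and 0 with posterior means. Of 24 transcript shares, 14 moved beyond that spread when taken from expected counts and 3 when taken from posterior means. The 60 further pathway genes detected became 64 at 0.5 TPM and 44 at 5 TPM. Low read counts limit what can be read from Gdf7 (0 and 4 reads), Tgfb1 (56 and 26), Inhba (69 and 154) and Smad9 (87 and 98). With 2 libraries of 1 group, a comparison between the pools cannot leave a library out, so the values of each library are printed instead. No paired analysis was possible because there is 1 group.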

Other observations

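Several members share exon sequence with another annotated gene. Of the 43 genes, 12 have such an overlap, and in 10 of them the partner lies on the opposite strand. Bmpr1a shares 290 bases with the antisense RNA Gm17110, which stood at 1.01 TPM in replicate 1 and 1.30 TPM in replicate 2. Id4 shares 82 bases with the antisense RNA A330033J07Rik at 1.25 and 2.08 TPM, higher in replicate 2 as Id4 was. Chrd shares 239 bases with Thpo, the thrombopoietin gene, at 0.85 and 1.01 TPM. Tgfb2 shares 124 bases with the antisense RNA Gm29491 at 0.66 and 0.46 TPM. Bmp5 shares 1878 bases with the antisense RNA Gm26903, at 0.02 and 0 TPM. Whether reads of the shared bases came from the member or its partner was not tested.

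Genes of the floor plate, the ventral counterpart of the roof plate, were detected in 4 of 5 cases, with a summed TPM of 86.0 in replicate 1 and 86.8 in replicate 2, led by Spon1 at 57.4 and 62.7 TPM. The choroid plexus list, whose tissue expresses BMPs in the brain, had 1 of 6 genes detected and summed to 14.97 and 3.82 TPM. The cartilage and skeletal muscle lists went against the thymic ones, with sums of 80.6 and 124 TPM for cartilage and 144 and 253 TPM for muscle, each higher in replicate 2.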
